A study of Danio rerio with 6 samples.

Results

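The proteasome subunit genes described here are the genes of the deposited count table whose symbol begins with psma, psmb, psmc, psmd, psme, psmf or psmg followed by a digit. This rule matched 58 of the 32105 genes in the table, and 57 had at least 10 counts summed over the 6 libraries. The gene that was dropped, *psmb11b*, had 2 counts in wild-type replicate 5 and none in the other libraries. Of the 57 members, 5 belong to the immunoproteasome (*psmb8*, *psmb9*, *psmb10*, *psmb12* and *psmb13a*) and are kept apart. The other 52 comprise 10 alpha and 7 beta genes of the core particle, 7 ATPase and 14 non-ATPase genes of the cap, 6 regulators or inhibitors, 6 assembly chaperones, and 2 genes that are only named after a subunit. The rule uses names and a low count minimum, not the difference between groups.

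The libraries are bulk RNA-seq of zebrafish, labelled as 5 dpf and as whole body. There are 3 libraries of fish homozygous for the CRISPR allele fr105 of *ikzf1*, numbered replicates 1 to 3, and 3 of their wild-type siblings, numbered replicates 4 to 6. All have a background that the labels call a mixture of wild-type strains. *ikzf1* encodes Ikaros, a zinc finger transcription factor required for lymphoid development, and fr105 is a deletion within the gene that leaves only the first of the zinc fingers. It is 1 allele, the labels name no agent, and fish of another *ikzf1* allele were not analysed here. The mutant libraries held 34759504 to 38383935 counts each and the wild-type libraries 38177112 to 39404324. The 57 members made up 0.412% ± 0.0659 (SD, n = 3) of the counts of a mutant library and 0.331% ± 0.0441 (SD, n = 3) for wild type. The label of whole body was checked against its defining markers. The summed level of 8 matched skeletal muscle genes was between 2.27 and 5.91 CPM (counts relative to the library total after TMM scaling) in every library with 4 of them at 0 throughout, and that of 6 lens genes was at most 1.30 CPM with 2 at 0. These markers are thus nearly absent. By contrast, 6 neutrophil genes summed to 24620 to 52340 CPM over the libraries, and the haemoglobin gene *hbaa1* had 5864 to 18409 CPM. The tissue behind the libraries was not established, so the values should not be read as those of whole larvae. The labelled age was not checked. The targeted gene *ikzf1* (ENSDARG00000013539) had 53145, 44700 and 29104 counts in mutants, against 8746, 6776 and 10579 for wild type. Its RNA was higher in all 3 mutants by a log2 fold change of 2.37 ± 0.23 (SE), with an adjusted p of 0.000362 in edgeR, and the counts per gene do not show whether the deleted exons were read.

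The proteasome degrades proteins that carry ubiquitin chains. Its core particle is a stack of rings built of alpha subunits, which form the gate, and beta subunits, some of which carry the proteolytic sites. The regulatory cap holds a ring of ATPases that unfold substrates and thread them into the core, and non-ATPase subunits that bind ubiquitin and remove it. Other activators can replace the cap, and dedicated chaperones guide assembly. In immune cells and after interferon-gamma, catalytic beta subunits are exchanged for those of the immunoproteasome, which alters the peptides available to MHC class I molecules. In mammals, the subunit genes are often transcribed together under the control of NFE2L1.

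Proteasome genes lay slightly higher in fr105 mutants as a group, but single genes rarely passed the test. Of the 52 members outside the immunoproteasome, 50 had a positive log2 fold change and 2 a negative one (*psmg2* and *psmg3*, which encode chaperones of alpha ring assembly). The median was 0.37 on the log2 scale, or 1.29-fold, against -0.0048 over all 16630 genes tested, 49.5% of which had a positive estimate. The estimates ranged from -0.20 to 0.53 with standard errors of 0.096 to 0.22. Only *psmf1*, which encodes an inhibitor of the core particle, passed an adjusted p of 0.05 (edgeR's quasi-likelihood test, Benjamini-Hochberg adjustment over all genes tested). That is 1 of 52, or 1.92%, where 11% of all genes tested were called higher, and 0 of 52 were called lower where 8.76% of all genes were (19.8% in either direction). All 57 members passed the filter on low counts. At an unadjusted p under 0.05, 22 of the 52 were higher and 0 lower, beside 18.7% and 17% of all genes, and DESeq2 called 6 higher and 0 lower, beside 11.7% of all genes called higher by DESeq2. The count of calls was thus below the background in edgeR and near it in DESeq2, whereas the shared sign was not near that of all genes. The members moved together from library to library, as described below, so their signs are not separate observations of the genotype. In bulk samples, a change in the number of cells of a type and a change in RNA per cell cannot be told apart.

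**Figure D1:**
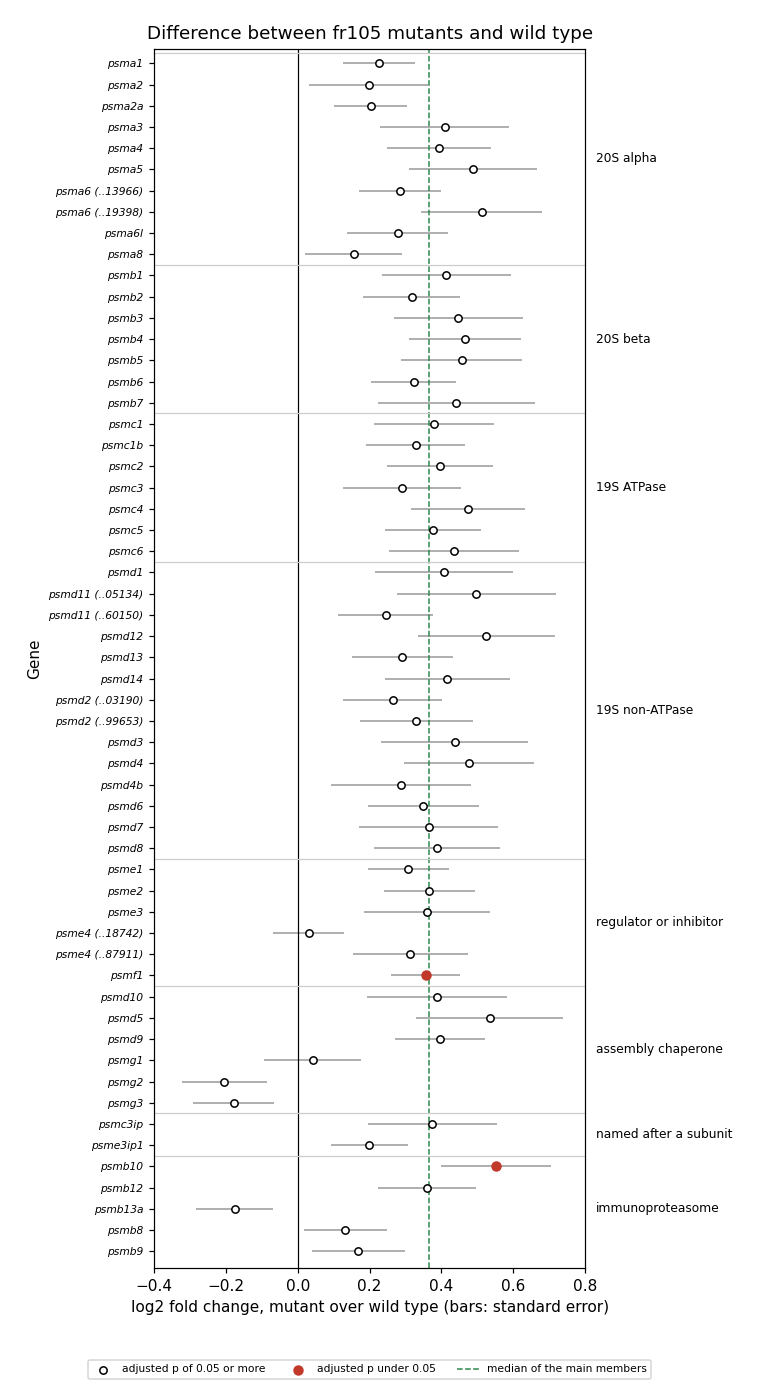
Log2 fold change (fr105 mutant minus wild type) of each of the 57 proteasome members with its standard error, grouped by role. Of the 52 members outside the immunoproteasome, 50 lie above 0, and *psmf1* and *psmb10* are the members with an adjusted p under 0.05 in edgeR.

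The libraries of each group differed among themselves in the same direction for nearly all members. Relative to each gene's mean over the 6 libraries, the median deviation of the 52 members on the log2 scale was 0.43, -0.04 and 0.13 for mutant replicates 1, 2 and 3. For wild-type replicates 4, 5 and 6 it was -0.19, -0.34 and 0.02. Mutant replicate 2 was therefore below wild-type replicate 6, and the group difference rested most on mutant replicate 1 and wild-type replicate 5. Mutant replicate 1 was the highest library for 44 of the 52 members, beside 20.5% of all genes tested, and wild-type replicate 5 the lowest for 40, beside 24%. Over all 16630 genes tested, the same median stayed within 0.01 of 0 in every library. TMM scaling and the centring of each gene largely set that value, so it is a reference and not a result. The groups overlapped for 37 members. For 23 of these 37, the overlap came only from mutant replicate 2 lying below wild-type replicate 6. In the 15 members without overlap every mutant was above every wild type, which is 28.8% beside 21.3% of all genes tested. None of the 57 members, those of the immunoproteasome included, had all mutants below all wild types, beside 20.6% of all genes tested.

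Leaving out single libraries changed the size of the difference but not its direction. Without mutant replicate 1 the median log2 fold change of the 52 members was 0.23, with wild-type replicate 5 left out 0.29, and without wild-type replicate 6 it was 0.47. With mutant replicate 1 and wild-type replicate 6 both left out, an alternative chosen after the data were seen, it was 0.32, with 49 estimates above and 3 below 0. The number of members at an unadjusted p under 0.05 fell to 3 when mutant replicate 1 was left out, to 3 when this was wild-type replicate 5 and to 9 when it was wild-type replicate 4. It rose to 38 when mutant replicate 2 was left out and to 34 when this was wild-type replicate 6. The shares of all genes tested under these fits are not given here, so these changes cannot be called particular to the members.

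**Figure D2:**
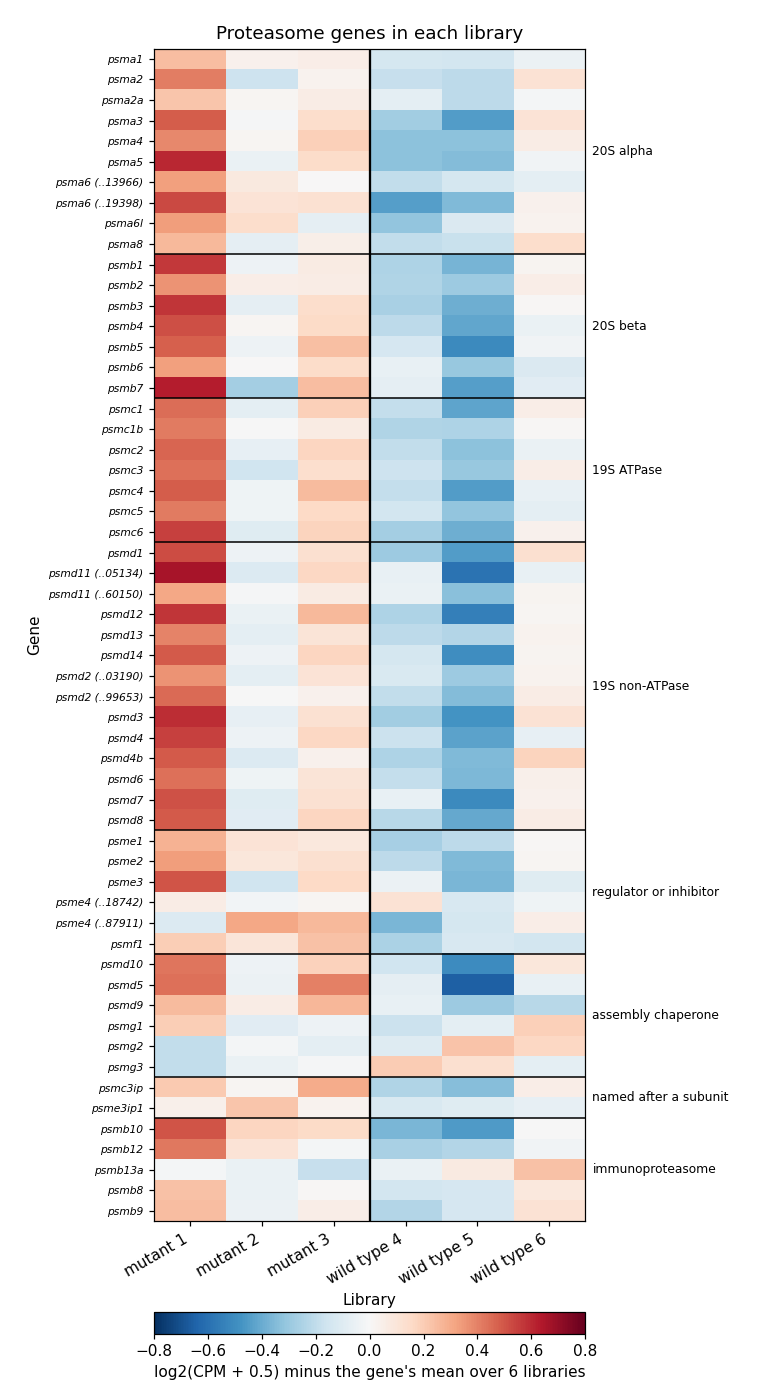
Deviation of log2(CPM + 0.5) from each gene's mean over the 6 libraries, with 1 row for each of the 57 members, ordered by role, and 1 column for each library. Mutant replicate 1 is the highest library for 44 of the 52 members outside the immunoproteasome, and wild-type replicate 5 is the lowest for 40.

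Some marker lists followed this order of the libraries in part, and others did not. The 13 tested proliferation genes (replication and cell division, such as *pcna* and *cdk1*) had median deviations of 0.37, 0.18 and 0.33 in the mutants and -0.26, -0.50 and 0.00 in wild type, so wild-type replicates 5 and 4 were again the lowest. Of these genes, 7 were called higher (53.8%) and 0 lower. Over all genes tested, 11% were called higher and 8.76% lower, the shares to set beside the calls of each list here. The summed level over 14 matched proliferation genes was 1575 to 1834 CPM in mutants and 1020 to 1414 CPM in wild type. The 6 neutrophil genes summed to 38678 to 52340 CPM in mutants and 24620 to 37247 CPM in wild type, 1 of them called higher (16.7%). Mutant replicate 1 was again the highest, but wild-type replicate 4 and not 5 the lowest. The 9 matched erythroid genes summed to 22077 to 28595 CPM in mutants and 11223 to 25529 CPM in wild type. Of 8 tested, 2 were called higher (25%), with 7 positive estimates and 1 negative (*hbaa2*). Their median deviations were 0.26, 0.27 and 0.53 in the mutants and 0.09, -0.82 and -0.33 in wild type. The sums overlapped between groups, whereas the median deviations did not. By both measures wild-type replicate 5 was the lowest and mutant replicate 3 the highest. Wild-type replicate 4 was the highest of its group. The summed level of 16 matched macrophage genes overlapped between groups, at 1833 to 2148 CPM in mutants and 1768 to 2015 CPM in wild type. Of 15 tested, 3 were called higher (20%). By this sum, mutant replicate 1 was the lowest mutant and wild-type replicate 5 the highest wild type. The median deviations of the 15 genes gave another order, at 0.16, 0.22 and 0.11 in the mutants and -0.30, -0.22 and -0.01 in wild type. By that measure the groups did not overlap, and wild-type replicate 6 was the highest wild type. Lymphocyte genes went the other way. Of 7 tested B cell genes, 6 were called lower (summed level 162 to 177 CPM in mutants, 197 to 296 CPM in wild type), as were 6 of 10 T cell genes (108 to 179 CPM against 303 to 333 CPM), and none of either list was called higher. Most of the B cell sum came from 1 gene named *swap70* (ENSDARG00000057286), which was not called, with a mean of 156 CPM in mutants and 149 CPM in wild type. Most of the T cell sum likewise came from 1 gene named *ccr9* (ENSDARG00000055186), which was called lower, with a mean of 115 CPM in mutants and 253 CPM in wild type. Among the T cell genes, *cd4-1*, *cd8a*, *zap70* and *cd28* were not called. The median log2 fold change was -2.44 for the tested B cell genes and -1.16 for the T cell genes. The part of these cell type and proliferation differences in the proteasome result was not tested.

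**Figure D3:**
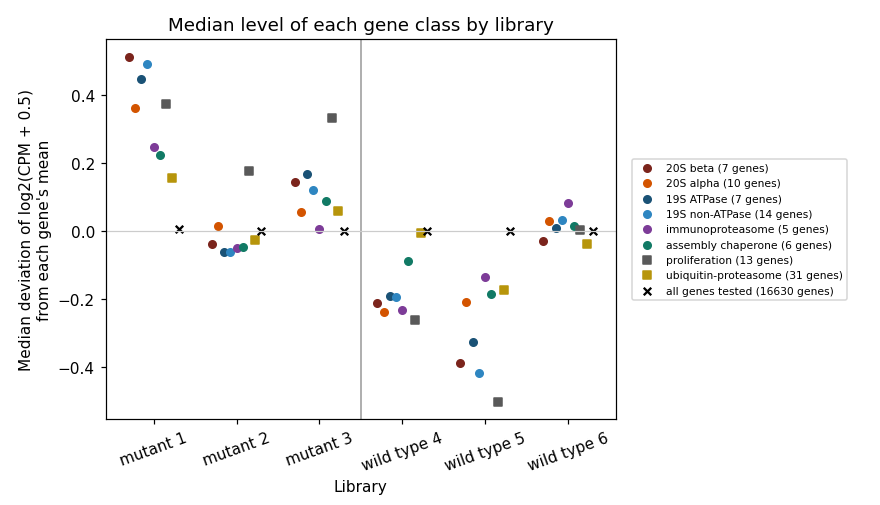
Median deviation of log2(CPM + 0.5) from each gene's mean, by library, for the proteasome classes and for the proliferation and ubiquitin-proteasome lists. Every proteasome class shown is highest in mutant replicate 1, as are the proliferation and ubiquitin-proteasome lists. The median over all 16630 genes tested, which the scaling holds near 0, stays within 0.01 of 0 in each library.

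The 38 core and cap subunit genes all had a positive estimate, with a median log2 fold change of 0.38. In edgeR none passed an adjusted p of 0.05, while DESeq2 called 5 higher, beside 11.7% of all genes called higher by DESeq2. Of these 38, 17 had an unadjusted p under 0.05 in edgeR, beside 18.7% of all genes tested that were higher at that threshold. The lowest adjusted p of the 38 in edgeR was 0.0666. Mutant replicate 1 was the highest library for all 38, beside 20.5% of all genes tested, and wild-type replicate 5 the lowest for 33, beside 24%. These genes moved together from library to library, so such counts are not separate observations of the genotype. The groups did not overlap for 9 of them, or 23.7%, which is near the 21.3% of all genes tested.

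The 10 alpha genes, which encode the outer rings of the core, had estimates from 0.16 to 0.51 with a median of 0.28. The most counted was *psma8* (ENSDARG00000010965), for which RefSeq lists *psma7* as a synonym. It had 183, 146 and 158 CPM in the mutants (replicates 1, 2 and 3, in this order throughout) and 133, 135 and 168 CPM in wild type (replicates 4, 5 and 6). The groups overlapped, and the log2 fold change was 0.16 ± 0.134 (SE), with an adjusted p of 0.442 in edgeR. The alpha gene with the lowest adjusted p was one of the copies named *psma6* (ENSDARG00000019398), a subunit of the gated ring. Its level was 55.2, 41.0 and 41.4 CPM in the mutants and 27.9, 29.7 and 38.9 CPM in wild type, so the groups did not overlap, although mutant replicate 2 and wild-type replicate 6 were close. Its log2 fold change was 0.51 ± 0.168 (SE), with an adjusted p of 0.0666 in edgeR and 0.0342 in DESeq2. Among the other alpha genes, *psma5* had an estimate of 0.49 and an adjusted p of 0.0494 from DESeq2, and the groups of *psma1*, *psma2a* and the other *psma6* copy did not overlap.

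The 7 constitutive beta genes had the highest median of the classes, 0.44, in a narrow range from 0.32 to 0.47. The most counted beta gene, *psmb4* (ENSDARG00000054696), encodes a non-catalytic subunit of the inner ring and was also the one with the lowest adjusted p. It had 186, 131 and 145 CPM in the mutants and 112, 97.2 and 125 CPM in wild type, or 154 ± 28.3 (SD, n = 3) against 112 ± 14.0 (SD, n = 3). The groups did not overlap. The log2 fold change was 0.47 ± 0.155 (SE), with an adjusted p of 0.0694 in edgeR and 0.0325 in DESeq2. The catalytic subunits are encoded by *psmb5*, *psmb6* and *psmb7*. *psmb5* (ENSDARG00000075445) had 99.4, 69.4 and 84.2 CPM in the mutants and 64.8, 49.9 and 69.8 CPM in wild type, which gave a log2 fold change of 0.46 ± 0.168 (SE), with an adjusted p of 0.0938 in edgeR. Mutant replicate 2 and wild-type replicate 6 were nearly equal for this gene. *psmb6* (ENSDARG00000002240) had 92.3, 73.7 and 81.3 CPM against 70.5, 59.5 and 67.7 CPM, with no overlap and an estimate of 0.32. *psmb7* (ENSDARG00000037962) had 65.3, 34.8 and 50.1 CPM against 40.1, 30.9 and 39.6 CPM, the widest spread among mutants of the 3 catalytic genes, with an estimate of 0.44 and a standard error of 0.22.

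The 7 ATPase genes, whose products form the motor ring of the cap, ranged from 0.29 to 0.47 with a median of 0.38. The most counted, *psmc3* (ENSDARG00000007141), had 151, 99.6 and 122 CPM in the mutants and 99.0, 90.1 and 115 CPM in wild type. These values overlapped, and the log2 fold change was 0.29 ± 0.165 (SE), with an adjusted p of 0.244 in edgeR. *psmc4* (ENSDARG00000027099) had the lowest adjusted p of the class, with 150, 104 and 127 CPM in the mutants and 93.6, 78.2 and 103 CPM in wild type. Every mutant was above every wild type, but the gap between mutant replicate 2 and wild-type replicate 6 was small. Its log2 fold change was 0.47 ± 0.158 (SE), with an adjusted p of 0.0694 in edgeR and 0.0331 in DESeq2. *psmc5*, at 0.38, was the other ATPase gene whose groups did not overlap.

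The 14 non-ATPase genes, which encode the scaffold, the ubiquitin receptors and the deubiquitinase of the cap, ranged from 0.24 to 0.52 with a median of 0.38. The groups overlapped for 13 of them. *psmd1* (ENSDARG00000003189), a large scaffold subunit, was the most counted main member in a single library and had 196, 132 and 149 CPM in the mutants and 111, 99.9 and 149 CPM in wild type. Mutant replicate 3 and wild-type replicate 6 were nearly equal, and the log2 fold change was 0.41 ± 0.192 (SE), with an adjusted p of 0.17 in edgeR. The lowest adjusted p was that of *psmd12* (ENSDARG00000052377), which encodes a subunit of the lid. It had 99.1, 64.2 and 79.8 CPM in the mutants and 56.0, 45.5 and 67.4 CPM in wild type, and the groups overlapped. Its log2 fold change was 0.52 ± 0.191 (SE), with an adjusted p of 0.0899 in edgeR and 0.0457 in DESeq2. *psmd14*, the deubiquitinase, had an estimate of 0.42, and *psmd4* (ENSDARG00000101295), a ubiquitin receptor, one of 0.48 with no overlap.

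Several subunits are named on more than 1 gene of the table. The estimates within such sets had the same sign. They were 0.33 and 0.26 for the genes named *psmd2*, 0.50 and 0.24 for *psmd11*, 0.48 and 0.29 for *psmd4* and *psmd4b*, and 0.38 and 0.33 for *psmc1* and *psmc1b*. For alpha genes they were 0.20 and 0.20 for *psma2* and *psma2a*, and 0.28, 0.51 and 0.28 for the *psma6* genes and *psma6l*. Values of near-identical copies are uncertain, since reads that fit more than 1 copy may not have been counted or may have been split.

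Activators and the inhibitor of the core include the gene that passed the test. *psmf1* (ENSDARG00000022652), which encodes the inhibitor PI31, had 1071, 936 and 1001 counts in the mutants and 780, 855 and 881 counts in the wild types. This was 28.0, 26.0 and 28.6 CPM against 20.4, 22.2 and 22.0 CPM, or 27.5 ± 1.36 (SD, n = 3) against 21.5 ± 0.991 (SD, n = 3). The lowest mutant, replicate 2, was above the highest wild type, replicate 5 (p = 0.1 in an exact two-sided permutation test, the lowest possible with 3 against 3). The log2 fold change was 0.36 ± 0.096 (SE), with an adjusted p of 0.0362 in edgeR and 0.0307 in DESeq2. Its size was close to the median of the class, and its standard error was the lowest of the 52 members. The call was lost when any 1 of the 6 libraries was left out (adjusted p 0.0523 to 0.124 in edgeR), while the log2 fold change stayed between 0.32 and 0.40. Without the filter on low counts the adjusted p was 0.0537, and with upper quartile scaling 0.0607.

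The genes of the ring-shaped activator PA28 were next. *psme2* (ENSDARG00000033144), the most counted of the class, had 167, 141 and 145 CPM in the mutants and 114, 104 and 134 CPM in wild type. The groups did not overlap, with a log2 fold change of 0.37 ± 0.126 (SE), with an adjusted p of 0.0766 in edgeR. *psme1* (ENSDARG00000002165), its partner in the same ring, had an estimate of 0.31 ± 0.112 (SE) and no overlap, and *psme3*, which encodes the nuclear form, one of 0.36 with overlap. The 2 genes named *psme4*, which encode the activator PA200, did not have similar estimates. One (ENSDARG00000018742) had 105, 99.2 and 102 CPM in the mutants and 109, 92.1 and 98.4 CPM in wild type, a log2 fold change of 0.03 ± 0.098 (SE), and the other (ENSDARG00000087911) an estimate of 0.31 ± 0.160 (SE). The difference between these 2 genes was not tested.

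The 6 assembly chaperone genes held the only negative estimates among the 52 members. *psmg2* (ENSDARG00000035987), the most counted chaperone gene, had 27.7, 31.6 and 30.2 CPM in the mutants and 29.7, 37.5 and 35.8 CPM in wild type, with overlapping groups and a log2 fold change of -0.20 ± 0.117 (SE), with an adjusted p of 0.249 in edgeR. *psmg3* had an estimate of -0.18 ± 0.113 (SE) and *psmg1*, whose product pairs with that of *psmg2*, one of 0.04 ± 0.135 (SE). For *psmg1*, the sign depended on which library was left out, from -0.05 to 0.16. The 3 chaperones of the cap base had positive estimates. *psmd9* (ENSDARG00000006300) had 15.6, 13.6 and 15.8 CPM in the mutants and 12.5, 10.6 and 11.1 CPM in wild type. No mutant overlapped with a wild type, and the log2 fold change was 0.40 ± 0.126 (SE), with an adjusted p of 0.0608 in edgeR. *psmd5* (ENSDARG00000059046) had 22.1, 15.6 and 21.6 CPM against 15.4, 10.1 and 15.5 CPM, an estimate of 0.53, and mutant replicate 2 was barely above the wild types. *psmd10* had an estimate of 0.39 with overlapping groups. The difference between the psmg genes and the cap chaperones was not tested.

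The 2 genes that are only named after a subunit had positive estimates. *psmc3ip* (ENSDARG00000037892), which takes part in meiotic recombination in mammals, had 6.27, 5.42 and 6.70 CPM in the mutants and 4.47, 4.13 and 5.59 CPM in wild type, a log2 fold change of 0.37 ± 0.179 (SE), with an adjusted p of 0.175 in edgeR. *psme3ip1* (ENSDARG00000041631), named as a partner of *psme3*, had 17.0, 19.3 and 16.9 CPM against 15.1, 15.4 and 15.8 CPM, with no overlap and an estimate of 0.20 ± 0.107 (SE), with an adjusted p of 0.22 in edgeR. Mutant replicate 1 was not the highest library for either of them.

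The 5 immunoproteasome genes did not share 1 direction. Their estimates ranged from -0.18 to 0.55 with a median of 0.17, 4 positive and 1 negative, beside 49.5% positive over all genes tested. Of the 5, 1 was called higher and 0 lower, beside 11% and 8.76% of all genes, a count too small to read against that background. In the gene order of RefSeq for the assembly GRCz12tu, *psmb13a*, *psmb8a*, *psmb12* and *psmb9a* neighbour each other beside genes of class I antigen presentation (*mhc1uba*, *tapbp.2* and *tap2a*), and *psmb10* lies elsewhere. The counts were made on another build, so RefSeq serves for names and neighbours only, with *psmb8* and *psmb9* of the table taken as *psmb8a* and *psmb9a* by their RefSeq synonyms.

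*psmb10* (ENSDARG00000043781), which encodes the inducible counterpart of the *psmb7* subunit, was the member called higher. It had 2635, 1964 and 1879 counts in the mutants and 1432, 1354 and 1937 counts in wild type, or 68.8, 54.6 and 53.8 CPM against 37.4, 35.2 and 48.3 CPM. The mean was 59.1 ± 8.45 CPM (SD, n = 3) for mutants and 40.3 ± 7.04 (SD, n = 3) for wild type. All mutants were above all wild types, among which replicate 6 stood highest (two-sided exact permutation test, p = 0.1). The log2 fold change was 0.55 ± 0.154 (SE), with an adjusted p of 0.0406 in edgeR and 0.0115 in DESeq2. The call was lost when mutant replicate 1, 2 or 3 or wild-type replicate 4 or 5 was left out (adjusted p 0.0592 to 0.129 in edgeR) and kept without wild-type replicate 6 (0.0191), with log2 fold changes of 0.43 to 0.70. With upper quartile scaling the adjusted p was 0.0549.

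None of the 4 neighbouring genes passed an adjusted p of 0.05. *psmb12* (ENSDARG00000031885), listed by RefSeq with the synonym beta1t, had 53.6, 43.1 and 39.4 CPM in the mutants and 33.2, 33.8 and 39.1 CPM in wild type. The groups did not overlap, although mutant replicate 3 and wild-type replicate 6 were close, and the log2 fold change was 0.36 ± 0.136 (SE), with an adjusted p of 0.101 in edgeR. *psmb13a* (ENSDARG00000001656), listed with the synonym beta2ta, had 53.1, 51.9 and 47.2 CPM in the mutants and 51.8, 56.6 and 63.3 CPM in wild type. It was the only one of the 5 with a negative estimate, -0.18 ± 0.107 (SE), with an adjusted p of 0.277 in edgeR, and only wild-type replicate 4 lay within the range of the mutants. The estimate stayed negative with each library left out, from -0.24 to -0.10. *psmb8* (ENSDARG00000001303), the inducible counterpart of *psmb5* known as lmp7, had 86.0, 70.4 and 73.3 CPM against 65.8, 66.5 and 77.3 CPM, with overlap and a log2 fold change of 0.13 ± 0.116 (SE), with an adjusted p of 0.449 in edgeR. *psmb9* (ENSDARG00000000656), the counterpart of *psmb6* known as lmp2, had 1340, 1022 and 1068 counts against 955, 1031 and 1278 counts, with overlap and an estimate of 0.17 ± 0.130 (SE), with an adjusted p of 0.385 in edgeR. For all 5 genes wild-type replicate 6 was the highest of its group, as it was for 44 of the 52 members outside the immunoproteasome. Strand was not stated to be used in counting, and *psmb13a* and *psmb8a* overlap in the RefSeq gene models, so reads between these neighbours may not be fully separated.

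**Figure D4:**
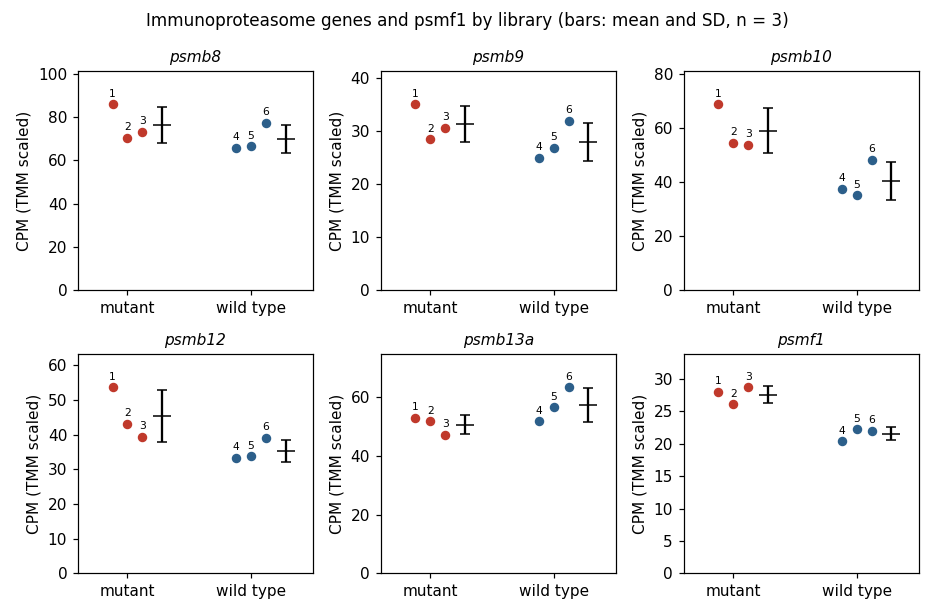
Level in CPM of the 5 immunoproteasome genes and of *psmf1* in each mutant and wild-type library, with the mean and SD of each group. For *psmb10*, *psmb12* and *psmf1* all 3 mutants lie above all wild types, for *psmb8* and *psmb9* the groups overlap, and for *psmb13a* the mutant mean of 50.7 CPM is below the wild-type mean of 57.3 CPM.

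Other genes of the ubiquitin-proteasome system were taken from a list of 34 names, of which 31 were matched and tested. The median log2 fold change was 0.18, with 25 positive and 6 negative estimates, beside 49.5% positive over all genes tested. In edgeR 1 gene was called higher and 0 lower, or 3.23% called higher, beside 11% and 8.76% of all genes tested. The share called higher was thus below that of all genes. The gene called higher, *rad23ab* (ENSDARG00000058984), encodes a shuttle that carries ubiquitinated proteins to the proteasome. It had 24.2, 28.3 and 34.8 CPM in the mutants and 17.8, 14.9 and 17.9 CPM in wild type, with no overlap, and here mutant replicate 3 and not replicate 1 was the highest library. Its log2 fold change was 0.78 ± 0.154 (SE), with an adjusted p of 0.0106 in edgeR, and the adjusted p ranged from 0.0111 to 0.0356 with each library left out. The remaining genes are named for their roles after their values were seen. The cap-bound *uchl5* (a deubiquitinase) had an estimate of 0.57 ± 0.189 (SE), the small cap subunit *sem1* one of 0.37 ± 0.133 (SE), and *pomp*, which encodes the maturation factor of the core, one of 0.33 ± 0.152 (SE). The genes of the transcription factor NFE2L1 had estimates of 0.11 (*nfe2l1b*, standard error 0.115) and -0.16 (*nfe2l1*, standard error 0.269). *rps27a*, which encodes ubiquitin fused to a ribosomal protein, had an estimate of -0.23 (standard error 0.117). None of these 6 passed an adjusted p of 0.05 in edgeR, whereas *uchl5* passed it in DESeq2 (adjusted p 0.0303, against 0.0694 in edgeR).

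A further pair of lists bears on the immunoproteasome. Of 24 names of class I antigen processing, 21 genes were tested, 3 were called higher (14.3%, near the 11% of all genes tested) and 0 lower, and the median log2 fold change was 0.20. The calls were *tapbp.2*, a tapasin gene of the peptide-loading complex (0.47 ± 0.119 SE), *pdia3*, an oxidoreductase of the endoplasmic reticulum (0.58 ± 0.153 SE), and *calr3a*, a calreticulin gene (0.85 ± 0.244 SE). Each lost its call with some library left out, with adjusted p up to 0.0943, 0.107 and 0.144 in edgeR. Of the peptide transporter genes, *tap2a* and *tap2t* had estimates of -0.19 and -0.0027 and *tap1* one of 0.02, and *b2m*, the light chain of class I molecules, was at -0.14. Of 14 names of the interferon-gamma response, 12 genes were tested, 0 were called higher in edgeR and 0 in DESeq2, and 2 of them were higher at an unadjusted p under 0.05, *psme1* and *psme2*, which are themselves proteasome members. In edgeR 1 was called lower, *irf8*, a transcription factor of the myeloid and B cell lineages (-1.28, standard error 0.110, adjusted p = 0.000207 from edgeR). DESeq2 called 2 lower, the other being the gene named *jak2* (ENSDARG00000018882), a kinase of the interferon receptor, at -0.42 ± 0.129 (SE), with an adjusted p of 0.0552 in edgeR and 0.0312 in DESeq2 and all mutants below all wild types. The median of this list was 0.11. Over all 16630 genes tested, edgeR called 11% higher and 8.76% lower, and 18.7% were higher at an unadjusted p under 0.05. DESeq2 called 11.7% of all genes higher, and 1779 of those 16630 lower. With 12 genes tested, the counts of this list are too small to read against those shares.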

How the data were processed

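Stranded poly-A libraries of fr105 mutants and wild-type siblings (3 libraries each) were used. The authors aligned reads with STAR 2.5.2b-1 to GRCz10 with Ensembl annotation and counted them with featureCounts 1.6.0.1. The deposited values are raw counts without normalization. Fish of the allele IT325 were not analysed here. Nothing states that replicates came from separate clutches, so p-values measure the spread between these libraries. No 2 libraries agreed within sampling noise.

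Symbols were paired with 26357 of 32105 genes. The members and lists were chosen with earlier results of these data known. Named were all immunoproteasome genes, the called members, the most counted member and the one with the lowest adjusted p per role, called ubiquitin-proteasome genes and *ikzf1*. Other members are named as copies, partners or range ends, after their values were seen.

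Counts were analysed with edgeR 4.0.16 in R 4.3.3 (TMM, filterByExpr with 10 counts per library and 15 in total, quasi-likelihood F test, Benjamini-Hochberg over 16630 genes, threshold 0.05). The SE of a log2 fold change is its size over the square root of F. CPM are TMM-scaled, and 0.5 was added before logarithms. Levels were not compared between genes, since gene lengths were not used here. The test was run on simulated counts, with an outcome not given here. Genes were drawn independently there, so that check does not cover members that move together from library to library. Alternatives were DESeq2 1.42.0, other scalings and filters, halved counts (both mates of a pair appear to be counted), a robust fit, an adjusted p of 0.01 and each library left out.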

Additional observations from a re-analysis of the deposited data

How the results depend on the processing

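The median log2 fold change of the 52 members was 0.37 in the main fit and ranged from 0.23 to 0.47 over the alternatives run. Each shift was smaller than the pooled SD of the library medians, 0.213. That is a wide margin beside a median of 0.37, so passing it says little about stability. Under each alternative, 0 members were called lower. The number of members called higher (1) was 6 with DESeq2, 0 without the low-count filter, 0 with upper quartile scaling, 0 at an adjusted p of 0.01, and 0 with both mutant replicate 1 and wild-type replicate 6 left out, an alternative chosen after the data were seen. It ranged from 0 to 3 with each library left out, where 3 was reached by leaving out mutant replicate 2 and likewise wild-type replicate 6. The number of immunoproteasome genes called (1) was 0 with upper quartile scaling, 0 at an adjusted p of 0.01, and 0 to 1 with each library left out. The causes were not tested, and the shares of all genes called with a library left out are not given here. Upper quartile scaling shifted the median of all genes tested to -0.05, with 48 positive and 4 negative estimates among the 52 members and a median of 0.32. No paired analysis was possible because the groups share no replicate number. Counts of 159 to 7505 per library lie behind the 52 members, so the spread between 3 libraries per group, not the depth, limits the precision of differences of this size.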

Other observations

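Ratios of counts within a library do not depend on its scaling. For 5 pairs, chosen after the values were seen, a constitutive beta gene was set against its immunoproteasome counterpart, or an immunoproteasome gene against another. The ratio of *psmb10* to *psmb13a* was 1.30, 1.05 and 1.14 in the mutants (replicates 1, 2 and 3), against 0.722, 0.621 and 0.763 in the wild types (replicates 4, 5 and 6), a log2 difference of 0.73 without overlap. The ratio of *psmb12* to its neighbour *psmb13a* was 1.01, 0.831 and 0.834 against 0.641, 0.597 and 0.617, a log2 difference of 0.52 without overlap. The ratio of *psmb5* to *psmb8* was 1.16, 0.986 and 1.15 against 0.984, 0.750 and 0.904, a log2 difference of 0.32, where mutant replicate 2 and wild-type replicate 4 were nearly equal. For each of these 3 pairs the two-sided exact permutation p was 0.1, the smallest that 3 against 3 allow, and 0.167 after Benjamini-Hochberg adjustment over the 5 pairs. The pairs with *psmb13a* set genes with positive estimates against the only immunoproteasome gene with a negative one. Their separation thus follows in part from the choice of pairs, and the p-values only describe the order of the ratios. The ratios of *psmb6* to *psmb9* and of *psmb7* to *psmb10* overlapped between groups, with log2 differences of 0.15 (exact permutation p = 0.4) and -0.15 (exact permutation p = 0.7).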
